A study of Rattus norvegicus with 19 samples.

Results

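Collagens are the structural proteins of the extracellular matrix, and the RNA of their genes in the Leydig lineage of the rat is described here gene by gene. The set held every gene whose symbol in the array's annotation named a collagen chain, a lysyl oxidase (Lox, Loxl), a lysyl hydroxylase (Plod), a catalytic subunit of prolyl 4-hydroxylase (P4ha) or the collagen chaperone Serpinh1. It came to 52 genes, read by 73 probe sets, of 14217 genes that the array names alone. Each gene was represented by its brightest probe set over all arrays. Of the 52, 11 encode chains of fibrillar collagens, 7 encode chains of basement membrane collagens (types IV, XV and XVIII), 23 encode other collagen chains, and 11 encode processing enzymes and the chaperone.

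RNA was measured on Affymetrix arrays in 19 samples of Sprague-Dawley rat cells. By their labels 5 were stem Leydig cells, 3 were progenitor, 4 immature and 4 adult Leydig cells, and 3 were bone stem cells from outside the lineage. Leydig cells lie between the seminiferous tubules of the testis and make testosterone. The labels name no genotype, treatment, age, isolation or culture, so a difference of stage cannot be told apart from a difference in these. Whether the arrays of a group stand for different animals or cultures is also unstated. The p-values therefore cover the spread between arrays alone, and that spread may be technical.

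A collagen molecule is a triple helix of 3 chains. Prolyl 4-hydroxylases and lysyl hydroxylases modify the chains in the endoplasmic reticulum, where the chaperone encoded by Serpinh1 binds the folded helix. After secretion, lysyl oxidases oxidise lysines so that neighbouring molecules become crosslinked. Fibrillar collagens (types I, II, III, V, XI, XXIV and XXVII) form the fibrils of connective tissue, and type IV collagen forms the network of basement membranes.

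Values are signals on a linear scale, which the authors scaled to the same trimmed mean of 100 on every array. Tests were made on log2(signal + 16) in limma with all 19 arrays in the fit, and a gene was called at an adjusted p under 0.05. Log2 changes carry their standard error after ±, and the added 16 makes them understate the fold of a dim gene. A probe set's level was not set against that of another gene, since probe sets differ in brightness. In these bulk samples, fewer cells of a type and less RNA per cell cannot be told apart.

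The labels were checked against marker genes. The 7 Leydig markers summed to a signal of 299.6 to 1525.3 on the stem Leydig arrays and of 20306 to 31078.2 on the adult arrays. The progenitor sums (13668.7 to 21609.1) and immature sums (11706.9 to 22181.9) overlapped each other and reached the adult range. Bone stem sums (78.9 to 604) overlapped the stem Leydig sums. These sums therefore did not separate the later stages from each other or the stem groups from each other. The largest part in stem Leydig cells was Star (740 ± 480, SD, n = 5), and the steroid enzyme gene Cyp17a1 stood at 1.09 ± 0.55 there. On the bone stem arrays the bone and cartilage genes Acan (933 ± 31.2), Ibsp (155 ± 41.1) and Alpl (149 ± 63.9, SD, n = 3 each) were bright, while the osteoblast gene Bglap was at 4.06 ± 2.84. The brightest gene of that marker list, Spp1, was not confined to bone stem cells (3970 ± 214, SD, n = 3). It stood at 1870 ± 365 in stem Leydig cells (n = 5) and at 30.1 ± 6.16 in progenitors (n = 3). Smooth muscle markers were bright in both stem groups, whose sums overlapped. These sums ran from 5719 to 12367.7 in stem Leydig cells and from 8351.6 to 12413.4 in bone stem cells. Leukocyte markers summed to 6867.7 to 8104.1 on the bone stem arrays, against 104.5 to 136.8 on the stem Leydig arrays. Their part in any difference between these groups was not tested.

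Along the lineage 33 of the 52 genes were called lower in adult than in stem Leydig cells and 3 higher. Of all genes 26% were lower and 27.7% higher. Some genes of the set had their highest level in the middle stages. Of the 52 genes, 40 reached the median signal of all probe sets and arrays (25.3) in at least 1 group mean, and the other 12 (Col2a1, Col4a4, Col9a1, Col9a2, Col9a3, Col10a1, Col11a2, Col17a1, Col19a1, Col20a1, Col24a1 and Col26a1) stayed below it. The highest mean of those 40 was in stem Leydig cells for 18 genes, in progenitors for 7, in immature cells for 3, in bone stem cells for 12 and in adult cells for 0. All 11 processing genes had their lowest mean in adult cells. The same ranking of groups was not made for all genes, so these counts have no share to be set against. In the F-test over the 4 Leydig stages, 42 of 52 genes differed, where 63.9% of all genes did. These were 9 of 11 fibrillar, 7 of 7 basement membrane, 15 of 23 other collagen and 11 of 11 processing genes.

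**Figure D1:**
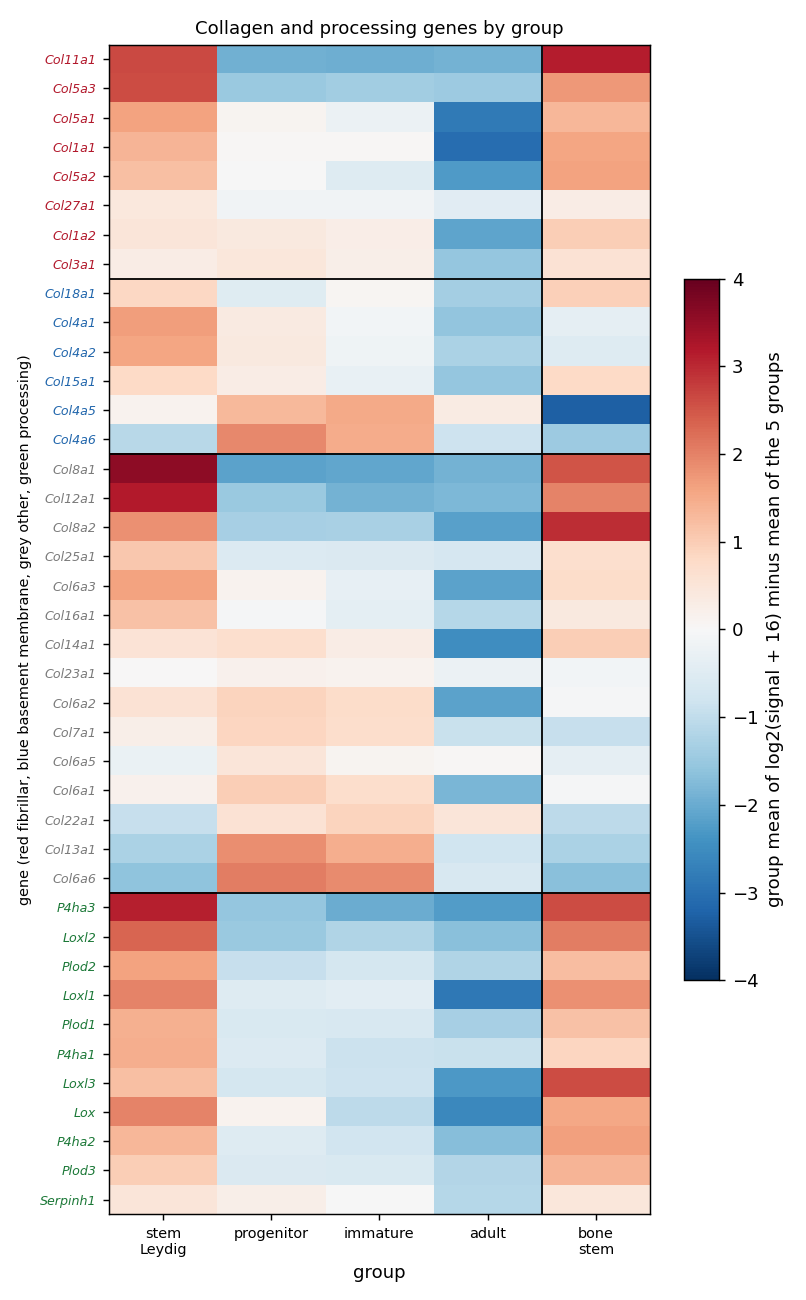
Group means of the 40 genes that reached the median signal, in rows by class, with the 5 groups in columns. Colour gives the group mean of log2(signal + 16) minus the mean of the 5 groups, so red is above and blue below a gene's own average. Most rows are red in stem Leydig and bone stem cells and blue in adult cells, while Col4a6, Col13a1 and Col6a6 are red in progenitor and immature cells.

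Fibrillar collagen genes were called lower at the first step and not at the last (Col5a3, Col11a1 and Col27a1), at both steps (Col1a1, Col5a1 and Col5a2) or, by their brightest probe set, at the last step and not at the first (Col1a2 and Col3a1). Col1a1 encodes the main chain of type I collagen, the most abundant fibril former of connective tissue. Its signal was 4830.3, 3012.1, 2184.5, 2116.7 and 3521.6 on the stem Leydig arrays, 1177.6, 1210.6 and 1132.7 on the progenitor arrays, 1245.4, 1024.5, 920.1 and 1722.4 on the immature arrays, and 280.5, 127.5, 66 and 99.1 on the adult arrays. The stem arrays lay above all later arrays, and the adult arrays below all others, without overlap. The gene fell from stem to progenitor cells by 1.34 on the log2 scale (SE 0.31, adjusted p = 0.00182) and again from immature to adult cells (-3.09 ± 0.30, adjusted p = 3.16e-07). Between progenitor and immature cells the difference was 0.02 ± 0.33 (adjusted p = 0.99).

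The probe sets of Col1a2, which encodes the partner chain in type I collagen, disagreed at the first step. On the brightest, with a mean signal of 2840, stem arrays read 5360.7, 3044.5, 2635.5, 2204.4 and 3756.3, and progenitor arrays 2359.9, 3556.7 and 3313.6, which overlapped (log2 change -0.10 ± 0.32, adjusted p = 0.855). The other, with a mean signal of 2320, was called lower in progenitors (-0.84 ± 0.31, adjusted p = 0.0371). On the brightest, immature arrays read 1988.7, 3086.6, 2759 and 3635.1, and adult arrays 987, 686.4, 277.3 and 420.8. The groups of the last step did not overlap, and Col1a2 fell by 2.36 (SE 0.31, adjusted p = 1.19e-05). Col3a1, whose chain forms type III collagen of pliable tissue, followed the same course, with 3280 ± 1110 in stem (SD, n = 5), 3540 ± 668 in progenitor (n = 3), 3060 ± 864 in immature (n = 4) and 869 ± 205 in adult cells (n = 4). It fell by 1.78 at the last step (SE 0.23, adjusted p = 1.16e-05), while its first step gave 0.15 ± 0.24 (adjusted p = 0.677).

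The RefSeq bases before the annotated start of Col1a2 (GRCr8, chr4:33518307-33518556, plus strand, 250 bases, 5′ to 3′) are shown because Col1a2 is the type I collagen gene of the set with an entry in the table used. Capitals mark TATAAA and the reverse complement of CCAAT.
Col1a2: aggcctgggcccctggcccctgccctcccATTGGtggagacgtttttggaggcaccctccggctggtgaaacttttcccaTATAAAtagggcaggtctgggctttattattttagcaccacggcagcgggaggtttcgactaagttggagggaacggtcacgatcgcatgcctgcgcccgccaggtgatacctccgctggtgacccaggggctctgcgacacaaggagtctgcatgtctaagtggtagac
The TATAAA match begins 170 bases before the annotated start and the CCAAT match 221 bases before it. Whether transcription begins at the annotated start was not checked, so these distances may not be distances to the transcription start. In windows of 250 bases before 33469 annotated starts, searched on both strands, 12.9% held TATAAA and 34% held CCAAT. Among the 41 genes of the set with such a window, 4 held TATAAA (9.76%) and 9 held CCAAT (22%). These shares are over 1 window per gene and the former over all annotated starts, so they are over unlike sets. A match is a description of the letters and not of a bound factor. Of the 52 genes, Col1a1, Col2a1, Col3a1, Col6a2, Col9a3, Col12a1, Col14a1, Col22a1, Col25a1, Lox and Loxl2 had no entry in the table used.

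Type V collagen chains sit inside type I fibrils and limit their width. Col5a1 read 2553.8, 1814.4, 1416.9, 1460.5 and 1912 in stem, 684.3, 644.8 and 546.1 in progenitor, 347.4, 479.6, 417.7 and 742.5 in immature, and 106.6, 89.5, 38.6 and 48.9 in adult cells. It fell at both ends, with log2 changes of -1.50 ± 0.25 (adjusted p = 7.19e-05) at the first step and -2.58 ± 0.24 (adjusted p = 2.18e-07) at the last. Col5a2 fell likewise, by 1.23 (SE 0.25) and 1.75 (SE 0.24), from 3030 ± 975 in stem to 254 ± 62.7 in adult cells. The third chain gene, Col5a3, behaved differently. Its stem arrays read 408.1, 325.3, 341.6, 396.9 and 364, and its progenitor arrays 13.6, 4.723 and 1.339, with no overlap. It fell by 4.12 at the first step (SE 0.19, adjusted p = 7.49e-13) and then stayed between 1.642 and 14.5 on every immature and adult array.

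Col11a1 encodes a chain of type XI collagen, a minor fibrillar collagen known best from cartilage. It read 1060.4, 775.3, 152.8, 636.6 and 908.4 on the stem Leydig arrays, with stem replicate 3 the lowest, and 6.75, 9.221 and 16.2 on the progenitor arrays. It fell by 4.54 at that step (SE 0.39, adjusted p = 1.1e-08), and its immature and adult arrays lay between 6.159 and 15.5. Of its further probe sets the brighter, with a mean signal of 188, fell by 4.59 on the log2 scale, and the other had a mean signal of 2.28 and did not pass (adjusted p = 0.933). Col27a1, another fibrillar chain gene, went from 40.4 ± 15.1 to 21.4 ± 5.51 at the first step (log2 change -0.56 ± 0.21, adjusted p = 0.0404), a call that 10 of 21 alternative settings removed.

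In all, 6 of 11 fibrillar genes fell from stem to progenitor cells and 0 rose, against 18.5% of all genes lower and 26.8% higher, with a median log2 change of -0.56 over the class and of 0.08 over all genes. From immature to adult cells 5 of 11 fell and 0 rose, where 17.3% of all genes were lower and 12% higher. The 5 were Col1a1, Col1a2, Col3a1, Col5a1 and Col5a2, and the class median was -0.38 against -0.06 over all genes. Between adult and stem cells 8 fell, and Col11a2, at 16.5 ± 3.24 in adult cells and 5.82 ± 3.55 in stem cells, was higher (26% of all genes were lower and 27.7% higher).

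**Figure D2:**
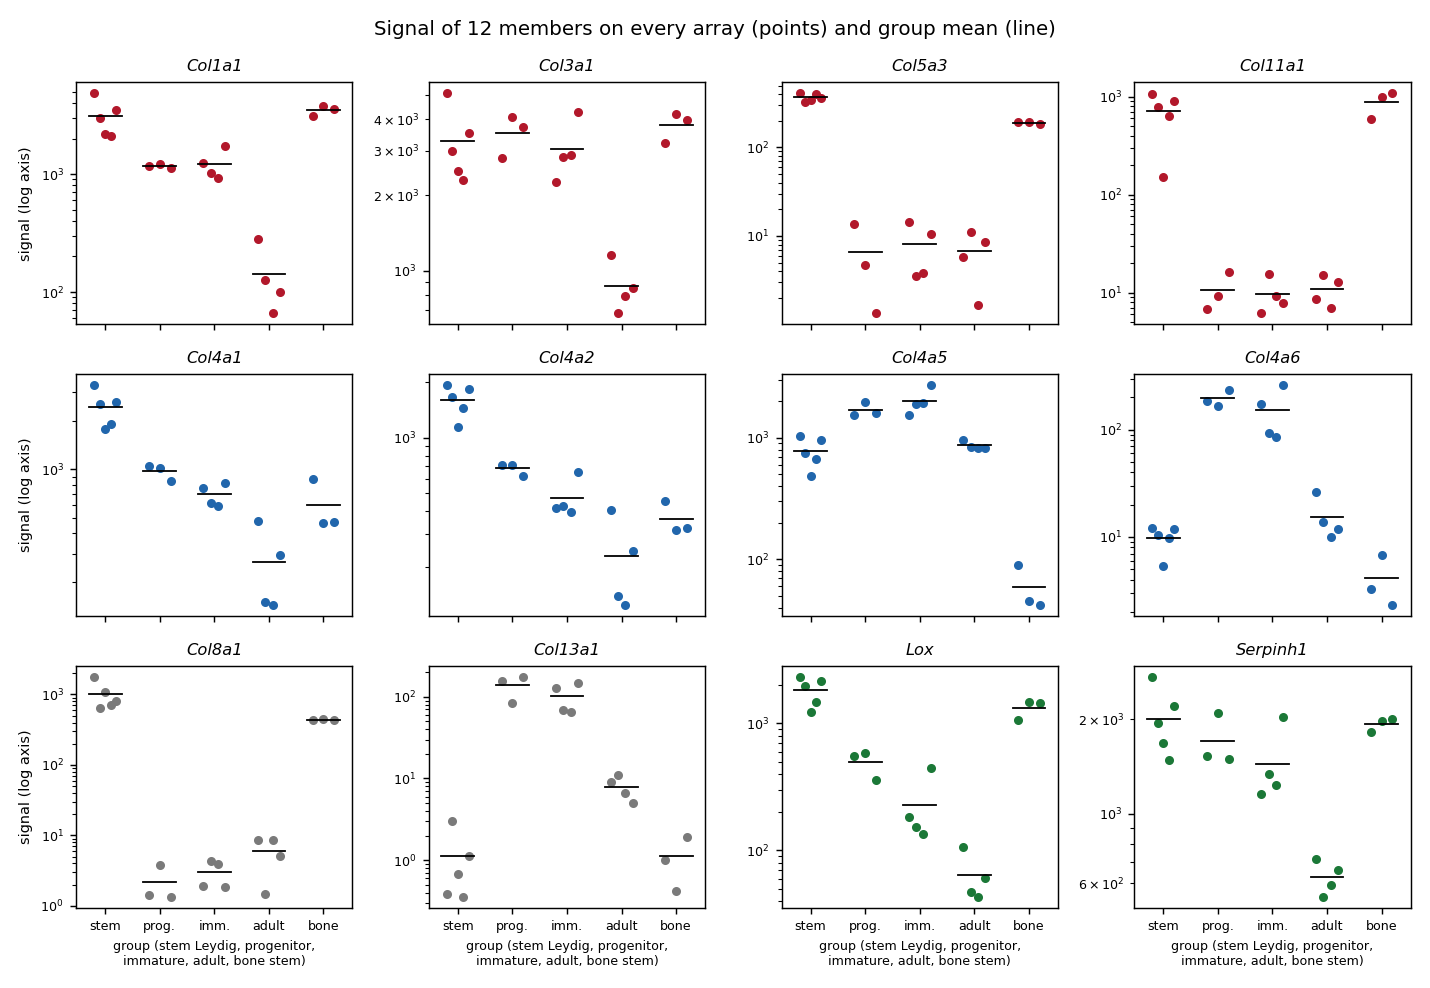
Signal on a log axis of 12 genes on every array (points) with the group mean (line), for stem Leydig, progenitor, immature, adult and bone stem cells; red marks fibrillar, blue basement membrane, grey other collagen and green processing genes. Col5a3, Col11a1 and Col8a1 drop at the progenitor stage, Col1a1 and Col3a1 are lowest in adult cells, and Col4a6 and Col13a1 are high in progenitor and immature cells.

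Type IV collagen is made of chains encoded by pairs of genes that lie head to head. Col4a1 and Col4a2, which supply the chains found in nearly all basement membranes, start 76 bases apart on opposite strands in RefSeq (GRCr8, chr16:84885521-84885596 between the starts). Col4a5 and Col4a6, whose chains belong to more specialised basement membranes, start 1414 bases apart on the X chromosome. The sequences are shown because each pair could be followed across the same arrays. All are 5′ to 3′, and capitals mark GGGCGG, a GC box, or its reverse complement CCGCCC. The first is the whole interval between the Col4a1 and Col4a2 starts on the strand of Col4a1, and the others are the 250 bases before the start on the gene's own strand (Col4a5, chrX:109907109-109907358, plus; Col4a6, chrX:109905945-109906194, minus).
Col4a1-Col4a2 interval: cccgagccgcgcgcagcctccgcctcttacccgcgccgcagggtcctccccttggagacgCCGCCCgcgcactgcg
Col4a5: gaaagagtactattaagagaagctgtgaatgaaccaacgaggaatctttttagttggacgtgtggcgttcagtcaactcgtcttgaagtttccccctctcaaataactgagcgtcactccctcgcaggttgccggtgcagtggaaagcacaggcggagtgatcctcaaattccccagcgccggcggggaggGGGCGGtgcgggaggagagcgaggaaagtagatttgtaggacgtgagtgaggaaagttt
Col4a6: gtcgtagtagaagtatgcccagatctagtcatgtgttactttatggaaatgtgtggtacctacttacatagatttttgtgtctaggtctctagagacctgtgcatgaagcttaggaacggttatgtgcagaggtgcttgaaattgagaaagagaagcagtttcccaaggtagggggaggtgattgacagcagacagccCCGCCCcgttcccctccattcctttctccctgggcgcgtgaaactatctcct
GGGCGG was present in 30.5% of all windows and in 24 of the 41 windows of the set (58.5%). The first share is over all 33469 annotated starts, not only those of genes on the array, and the second over 1 window per gene. The shares are therefore over unlike sets.

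Col4a1 and Col4a2 had falling levels on both sides of their short shared interval. Col4a1 read 3333.8, 2554.2, 1770.2, 1916.6 and 2615.4 in stem, 1047, 1017.2 and 846 in progenitor, 766.3, 618.2, 590.8 and 821.9 in immature, and 480, 150.9, 144 and 293.5 in adult cells. For Col4a2 the stem arrays read 1933.9, 1667.5, 1141.1, 1447.6 and 1830.6, the progenitor arrays 714.5, 714.1 and 617.7, the immature arrays 418.5, 426.5, 396 and 650, and the adult arrays 406.5, 139, 124.2 and 242.5. Stem arrays were above all later ones for both genes, and the adult range of Col4a2 reached into the immature range through adult replicate 1. At the first step Col4a1 fell by 1.28 (SE 0.30, adjusted p = 0.00182) and Col4a2 by 1.19 (SE 0.27, adjusted p = 0.00139). At the last step they fell by 1.49 (SE 0.29, adjusted p = 0.000807) and 1.12 (SE 0.26, adjusted p = 0.0037).

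Col4a5 and Col4a6 peaked in the middle of the lineage instead. Col4a5 was already present in stem cells, at 1037.4, 748.6, 484, 672.6 and 953.9, and read 1549.8, 1968.2 and 1592.3 in progenitor, 1549.1, 1898.8, 1931.6 and 2722.6 in immature, and 968.3, 842.8, 825.2 and 826.2 in adult cells. It rose by 1.15 ± 0.23 (adjusted p = 0.000359), fell by 1.18 at the last step (SE 0.22, adjusted p = 0.000469), and its adult and stem means, 866 ± 68.9 and 779 ± 222, did not pass a test of their difference (adjusted p = 0.501). Col4a6 started near the lowest signals, at 12, 10.5, 5.393, 9.746 and 11.8 in stem cells. It reached 183.8, 167.4 and 236 in progenitor and 171.9, 93.9, 85.2 and 261.2 in immature cells and returned to 26.1, 13.9, 9.935 and 11.9 in adult cells. Neither middle group overlapped the stem or adult arrays. The rise was 3.02 ± 0.26 (adjusted p = 7.66e-09) and the fall 2.33 (SE 0.25, adjusted p = 9.85e-07).

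The multiplexin genes Col15a1 and Col18a1 encode collagens of the basement membrane zone, and the latter chain is the source of the fragment endostatin. Col15a1 went from 903 ± 123 in stem through 634 ± 94.7 and 420 ± 86.1 to 188 ± 106 in adult cells. Its last step passed (-1.24 ± 0.34, adjusted p = 0.0113) and its first did not (-0.50 ± 0.35, adjusted p = 0.294). Without adult replicate 3 the last step no longer passed (adjusted p = 0.0526), and its dimmer probe set, with a mean signal of 205, was not called there (-0.79, adjusted p = 0.138). Col18a1 fell at both, by 1.30 (SE 0.37, adjusted p = 0.0093) and 1.42 (SE 0.36, adjusted p = 0.00711), and the first of these calls was lost without progenitor replicate 2 (adjusted p = 0.0738). Its groups overlapped at the first step, with progenitor replicate 3 at 177.5 and stem replicate 3 at 170.1.

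All 7 basement membrane genes fell from immature to adult cells (17.3% of all genes did), Col4a4 among them at signals of 13.1 ± 5.71 and 4.39 ± 4.3. At the first step 3 fell and 3 rose (18.5% and 26.8% of all genes), and Col15a1 did not pass. Endothelial cells also make basement membrane collagens, and 7 of the 8 endothelial markers measured rose at the last step while 0 fell, so they went the other way. Their summed signal was 263.3 to 806.5 on the immature arrays and 573.1 to 2947.8 on the adult arrays. Within adult cells, replicates 1 and 4 had the highest endothelial sums (2947.8 and 1977.2, against 573.1 and 1143.3 for replicates 2 and 3) and the highest Col4a1, Col4a2, Col15a1 and Col18a1. The part of endothelial RNA in the adult levels was not tested.

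The other collagens held the strongest changes of the set in both directions. Type VIII collagen is a short-chain collagen that forms hexagonal networks, for instance in vessel walls. Col8a1 read 1796.4, 653.5, 1098.1, 714.7 and 798.9 in stem cells and 1.409, 3.791 and 1.351 in progenitors, and lay at 1.479 to 8.713 on the later arrays. Its fall of 5.72 (SE 0.23, adjusted p = 9.29e-14) was the largest log2 change of the 52 genes at this step. Col8a2 fell by 3.16 (SE 0.33, adjusted p = 1.37e-07), from 435 ± 231 to 28.3 ± 1.53.

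Col12a1, whose chain decorates the surface of type I fibrils, fell at the same step. It read 917.4, 775.2, 731.2, 877.6 and 925.9 in stem cells and 18.4, 18.9 and 15 in progenitors (log2 change -4.68 ± 0.16, adjusted p = 1.02e-14), and no later array exceeded 18.9. Col25a1, which encodes a transmembrane collagen, went from 48.7 ± 31.4 to 3.27 ± 2.65 (-1.63 ± 0.26, adjusted p = 4.38e-05). Col16a1, another fibril-associated collagen, fell at both ends, by 1.20 (SE 0.15) and by 0.73 (SE 0.14), from 515 ± 74.7 in stem to 92.6 ± 19.3 in adult cells.

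Type VI collagen forms beaded filaments around cells, and its chain genes did not move alike. Col6a3 fell at the first step by 1.47 (SE 0.33, adjusted p = 0.00137), from 2080 ± 532 to 734 ± 167, and at the last by 1.82 (SE 0.32, adjusted p = 0.000298). Col6a1 read 1367.9, 1312.8, 589.5, 1128.1 and 1229.8 in stem and 1790.9, 1954.9 and 1895 in progenitor cells, with all progenitors higher, but did not pass there (0.79 ± 0.31, adjusted p = 0.0532). It fell by 2.52 at the last step (SE 0.30, adjusted p = 3.91e-06), to 434.7, 381.5, 127.3 and 205 in adult cells, and Col6a2 fell by 2.87 (SE 0.40, adjusted p = 2.11e-05). A dimmer probe set of Col6a3, with a mean signal of 62.7, did not pass at the last step (-0.45, adjusted p = 0.5).

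The more restricted chain gene Col6a6 peaked in the middle stages. It read 5.916, 9.882, 10.5, 9.686 and 8.33 in stem, 262.1, 260.8 and 374.6 in progenitor, 206.9, 252.2, 234.2 and 405.1 in immature, and 45.8, 47.6, 22 and 19.7 in adult cells. The rise was 3.65 ± 0.25 (adjusted p = 2.44e-10) and the fall 2.55 (SE 0.24, adjusted p = 1.83e-07). Adult arrays stayed above the stem arrays (0.95 ± 0.23, adjusted p = 0.00159). Col6a5, a close relative, was dimmer, at 11.3 ± 5.28 in stem and 30 ± 10.1 in progenitor cells (0.75 ± 0.18, adjusted p = 0.00183).

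Col13a1, which encodes a transmembrane collagen of cell adhesion sites, had the same shape. It was at 0.382, 2.994, 0.683, 0.358 and 1.139 in stem cells, at 156.9, 83.2 and 177.1 in progenitor cells, at 129.2, 68.9, 66.1 and 147.5 in immature cells, and at 9.151, 11, 6.577 and 5.044 in adult cells. No array of the middle stages overlapped one of the stem or adult groups. Col7a1, the gene of the anchoring fibrils beneath epithelia, rose by 0.65 ± 0.20 (adjusted p = 0.0157), from 52.2 ± 13.3 to 90.2 ± 20.7, and fell by 1.58 at the last step (SE 0.20, adjusted p = 6.35e-06). That rise was lost with median centring (adjusted p = 0.0687) and without progenitor replicate 3 (adjusted p = 0.107). The ratio of 3′ to 5′ beta-actin signal, a sign of RNA quality, was 6.35 on that array where the other arrays had 1.03 to 2.95. Progenitor replicate 3 is 1 of 3 progenitor arrays and enters every result of the first step. Without it 32 of the 52 genes were called at that step, against 33 with all arrays.

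Col22a1 and Col6a5 were the genes that rose at the first step without a called fall at the last. Col22a1 went from 15.9 ± 4.77 in stem to 72.6 ± 11 in progenitor (1.48 ± 0.18, adjusted p = 1.51e-06), 97.1 ± 26.7 in immature and 67 ± 10.1 in adult cells (last step -0.42 ± 0.18, adjusted p = 0.0991). Col14a1, which encodes a fibril-associated collagen related to type XII, was scattered in stem cells (217, 351.4, 34.9, 681.9 and 151.1), steady in progenitor and immature cells (149.9 to 254.4), and at 7.304, 16, 9.346 and 10.6 in adult cells. It fell by 2.80 at the last step (SE 0.47, adjusted p = 0.000197). Col23a1, a transmembrane collagen gene, was at 23.8 to 35.6 in the 5 group means and passed in none of the comparisons.

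Over the 23 other collagens, 6 fell and 5 rose at the first step, near the 18.5% and 26.8% of all genes, with a class median of 0.14. At the last step 8 fell and 0 rose (17.3% and 12% of all genes), with a median of -0.26. Between adult and stem cells 10 fell and 2, Col22a1 and Col6a6, rose (26% and 27.7% of all genes). This class holds 8 of the 12 dim genes, none of which passed in these 3 comparisons.

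The genes that modify, chaperone and crosslink collagen were all lower in adult than in stem cells. At the first step 10 of 11 fell and 0 rose, where 18.5% of all genes fell, and the class median was -1.99 against 0.08 over all genes. At the last step 8 of 11 fell (17.3% of all genes) with a median of -0.69. From stem to adult cells all 11 fell (26% of all genes), with a median of -3.04 against 0.03 over all genes.

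The catalytic subunit genes of prolyl 4-hydroxylase, which makes the hydroxyproline that stabilises the helix, differed in course. P4ha1 read 1340.7, 1286.9, 704.3, 1119 and 1256.5 in stem cells and 327.8, 330.3 and 176.8 in progenitors, a fall of 1.99 (SE 0.19, adjusted p = 3.79e-08). It then stood at 213.3, 205, 227.8 and 204.4 in immature and at 209.7, 202.2, 199.8 and 220 in adult cells. These last groups overlapped throughout, and the difference was -0.03 ± 0.18 (adjusted p = 0.941). P4ha3 dropped from 1070 ± 212 in stem to 27 ± 8.53 in progenitor cells, a fall of 4.66 (SE 0.18, adjusted p = 4.67e-14), and was at 10.4 ± 2.49 in adult cells. P4ha2 fell at both steps, by 1.83 (SE 0.19) and 0.94 (SE 0.19, adjusted p = 0.000982), although its dim second probe set, with a mean signal of 29.4, did not pass at the last step (-0.44, adjusted p = 0.215).

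Lysyl hydroxylases prepare lysines for sugar attachment and for crosslinks, and the enzyme of Plod2 acts on the telopeptides at the chain ends. Plod2 read 2053.7, 1599.1, 1035.6, 1298 and 1658 in stem cells and 279.5, 257 and 193 in progenitors, without overlap, and fell by 2.55 (SE 0.18, adjusted p = 5.21e-10). Plod1 fell by 2.05 (SE 0.15, adjusted p = 6.11e-10) and Plod3 by 1.55 (SE 0.12, adjusted p = 3.13e-09). At the last step the falls were small, 0.69 for Plod1, 0.58 for Plod3 and 0.51 for Plod2 on the log2 scale. With median centring none of these 3 passed (adjusted p = 0.0503 for Plod1, 0.0978 for Plod3 and 0.234 for Plod2), and quantile normalization also ended the Plod2 call (adjusted p = 0.0506). Removing any of 7 of the 8 arrays compared ended it too, immature replicate 1 being the exception.

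All 4 lysyl oxidase genes fell over the lineage. Lox itself read 2334.4, 1972, 1224, 1471 and 2135.4 in stem, 555.5, 580.1 and 355.6 in progenitor, 183.3, 151.7, 135.3 and 445.4 in immature, and 105.6, 46.8, 43.3 and 60.8 in adult cells. Each stage lay below the one before it except for immature replicate 4, which fell among the progenitors. It fell at the first step by 1.84 (SE 0.31, adjusted p = 6.92e-05) and at the last by 1.52 (SE 0.30, adjusted p = 0.00086). The dimmer Lox probe set, with a mean signal of 366, was not called at the last step (-0.50, adjusted p = 0.288).

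Its relatives followed 2 courses. Loxl1, known for its part in elastic fibres, fell by 2.50 (SE 0.29, adjusted p = 5.86e-07) and again by 2.45 (SE 0.28, adjusted p = 1.96e-06), from 1140 ± 299 in stem to 27.2 ± 19.8 in adult cells. Loxl3 fell by 1.89 (SE 0.22) and 1.48 (SE 0.21). Loxl2, a crosslinker of type IV collagen, went from 472.5, 533.4, 273.3, 477.1 and 496.6 in stem cells to 15.9, 26.3 and 9.105 in progenitors, and its last step did not pass (-0.46 ± 0.22, adjusted p = 0.157).

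The chaperone gene Serpinh1 kept its level longest. It read 2729.6, 1942.6, 1682, 1478.2 and 2193.5 in stem cells and 1526.6, 2088.5 and 1489 in progenitors, which overlapped (-0.22 ± 0.19, adjusted p = 0.415). It went from 1156.6, 1335, 1233 and 2026.2 in immature to 716.9, 544.5, 592.2 and 659.6 in adult cells, without overlap, a fall of 1.15 (SE 0.19, adjusted p = 0.000131). Its other probe set was dim, with a mean signal of 10.5, and did not pass (-0.14, adjusted p = 0.625).

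The log2 change of the last step minus that of the first was tested for each gene. For a gene that fell at both, it tells which fall was larger, but for a gene that rose and then fell it does not tell which change was larger. This test was chosen after the data were seen. Genes such as Col8a1, Col5a3, Col11a1, Col12a1, Loxl2 and P4ha3 were already at low signals in progenitor cells, so little further fall could be measured. For these a value above 0 follows from the size of the first fall, and the test adds nothing to that fall. The difference was above 0, so that the level fell more or rose less at the first step, for 13 of 52 genes (16% of all genes tested) and below 0 for 17 (24.6%). Those above 0 included 7 of 11 processing genes, among them P4ha3 (4.42 ± 0.25, adjusted p = 3.17e-11), Loxl2 (3.35 ± 0.32, adjusted p = 5.23e-08) and Plod2 (2.04 ± 0.25, adjusted p = 2.21e-06), and 2 of 11 fibrillar genes, Col11a1 (4.60 ± 0.55, adjusted p = 1.39e-06) and Col5a3 (4.04 ± 0.26, adjusted p = 2.35e-10). Col8a1 had the largest positive value, 5.92 ± 0.32 (adjusted p = 1.73e-11).

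On the other side stood 4 of 11 fibrillar genes, Col1a1 (-1.76 ± 0.43, adjusted p = 0.0034), Col1a2 (-2.27 ± 0.44, adjusted p = 0.000445), Col3a1 (-1.94 ± 0.33, adjusted p = 0.000123) and Col5a1 (-1.08 ± 0.35, adjusted p = 0.0218). Serpinh1 was the only processing gene there (-0.93 ± 0.27, adjusted p = 0.0109). Median centring removed Col5a1 (adjusted p = 0.123) and Serpinh1 (adjusted p = 0.175) from this side and gave 19 genes above and 13 below 0 in all. Col6a1 (-3.31 ± 0.43, adjusted p = 4.63e-06), Col6a2 (-3.21 ± 0.57, adjusted p = 0.00016) and Col14a1 (-2.92 ± 0.68, adjusted p = 0.00217) also lay below 0, as did the genes with a peak in the middle. For Col4a1 (-0.20 ± 0.42) and Col4a2 (0.07 ± 0.38), Lox (0.32 ± 0.43) and Loxl1 (0.04 ± 0.40) the difference between steps did not pass.

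**Figure D3:**
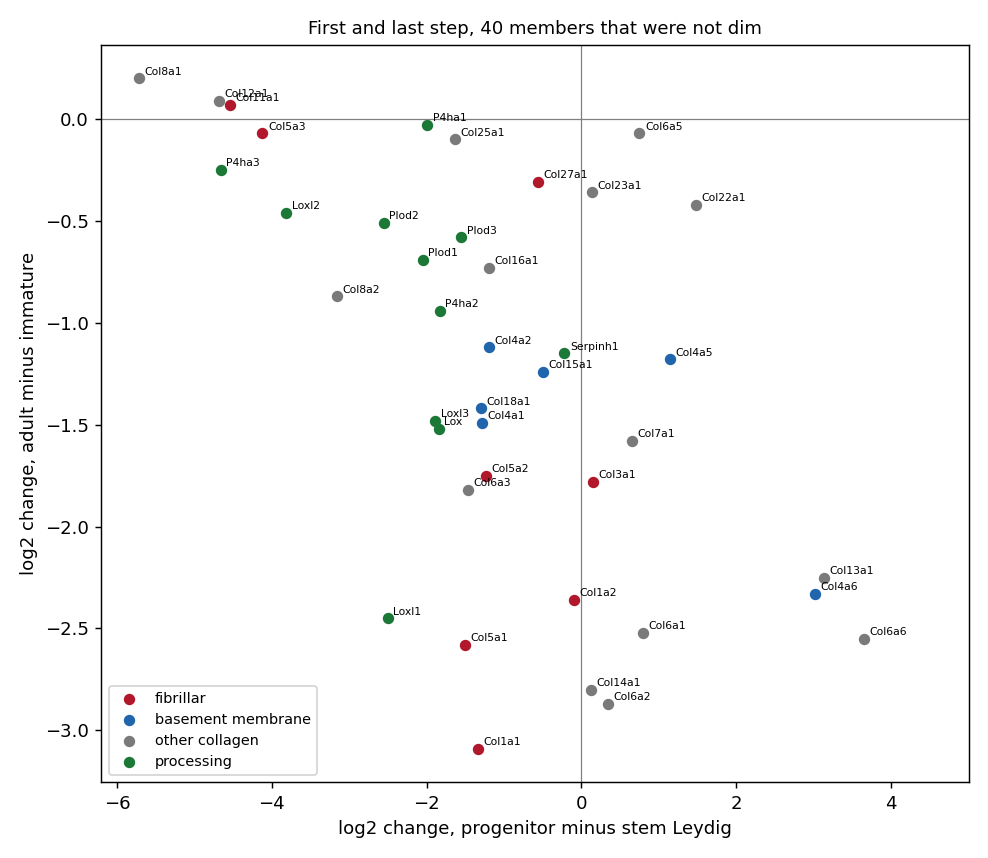
Each point is 1 of the 40 genes that reached the median signal, with its log2 change from stem Leydig to progenitor cells on the horizontal axis and from immature to adult cells on the vertical axis, coloured by class. Col8a1, Col12a1, Col11a1 and Col5a3 lie at the far left near 0 on the vertical axis, Col1a2, Col14a1 and Col6a2 lie low near 0 on the horizontal axis, and Col4a6, Col13a1 and Col6a6 lie at the lower right.

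Over all 52 genes, 25 fell and 8 rose at the first step, where 45.3% of all genes were called in either direction, and 28 fell and 0 rose at the last, where 29.3% were. Between adult and stem cells 33 fell and 3 rose, where 53.7% of all genes were called. Median centring moved the median of all genes by -0.23 at the first step and by 0.18 at the last, and then gave 26 fallen and 7 risen members, and 24 fallen and 2 risen. The 2 risen were the dim genes Col11a2 and Col9a1. The direction of the shares over all genes turned with this scaling. At the first step 2443 of 14217 genes were then higher and 3945 lower (3812 and 2629 without it), and at the last 2485 higher and 1380 lower (1706 and 2455 without it). Smooth muscle markers moved with the first step too, with a sum of 5719 to 12367.7 on the stem Leydig arrays and of 455.8 to 601.9 on the progenitor arrays. Of 6 markers of fibroblasts and mesenchymal precursors 4 fell (Eng, Nes, Pdgfrb and Thy1) and 2 rose (Pdgfra and Tcf21), with sums of 3194.6 to 4369.6 and 2458.7 to 2821.9. Markers of leukocytes (7 of 8 rose, sum 2363.4 to 2641.1 on the progenitor arrays), endothelium (7 of 8, sum 250.5 to 427.6 and then 953.3 to 1904.9) and erythroid cells (3 of 3, sum 9.4 to 47.3 and then 3380.7 to 5241.4) went the opposite way to most of the collagen genes. At the last step leukocyte markers fell with the collagens (4 of 8, 1 rose, sum 1176.1 to 2507.5 and then 295.1 to 759.7), as did the erythroid ones (3 of 3, sum 2456 to 5299.9 and then 264 to 693.4). Germ cell markers had sums of 325.4 to 892.6 and then 1258.8 to 3015.5, with 2 of 5 risen. Sertoli markers had sums of 604.9 to 903.2 and then 1041.2 to 2068.9, with 1 of 5 risen. At the first step the Sertoli sums were 72.4 to 96.6 and then 343.6 to 715.5, with 2 of 5 risen. The part of these marker groups in the collagen differences was not tested.

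The middle step, immature against progenitor cells, called 0 of the 52 genes in limma, where 1.94% of all genes were called (1.33% higher and 0.612% lower), and 4 had an unadjusted p under 0.05 (Col12a1, Col16a1, Lox and P4ha3). The median log2 change was -0.13. Lox came nearest (-1.19 ± 0.32, adjusted p = 0.0769). Immature replicate 4, at 445.4, was the array that overlapped the progenitors, and without it Lox fell by 1.55 on the log2 scale (adjusted p = 0.00164). The dimmer Lox probe set was called here with all arrays (-1.58 ± 0.33, adjusted p = 0.0187).

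The stem Leydig cells were also set against bone stem cells, whose arrays carry bright leukocyte markers besides bone and cartilage genes. The main fibrillar genes overlapped. Col1a1 read 3073.7, 3792.9 and 3536 on the bone stem arrays, inside the stem Leydig range (-0.21 ± 0.31, adjusted p = 0.75), and Col3a1 3224.7, 4217.2 and 3972.1 (-0.26 ± 0.24, adjusted p = 0.545). Of 11 fibrillar genes 1 passed, Col5a3, higher in stem Leydig cells at 367 ± 35.3 against 190 ± 5.23 (0.89 ± 0.19, adjusted p = 0.00192). A p above the threshold does not show that the other 10 were equal.

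Type IV collagen set these groups apart. Col4a5 read 90.9, 45.2 and 42.3 on the bone stem arrays and at least 484 on every stem Leydig array, a difference of 3.41 ± 0.23 (adjusted p = 7.44e-10). Col4a1, at 872.8, 463.5 and 470.6 in bone stem cells, was higher in stem Leydig cells by 2.01 ± 0.30 (adjusted p = 4.94e-05), and Col4a2, at 451.7, 317.3 and 323, by 2.09 ± 0.27 (adjusted p = 8.96e-06). No bone stem array reached the lowest stem Leydig array for these 3. Col4a6 was near the lowest signals in both groups, at 9.91 ± 2.69 and 4.12 ± 2.35.

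Col12a1 (1.20 ± 0.16), Col8a1 (1.07 ± 0.23), Col7a1 (1.13 ± 0.20) and Col16a1 (0.77 ± 0.15) were higher in stem Leydig cells as well, and P4ha1 passed narrowly (0.59 ± 0.19, adjusted p = 0.0309). Loxl3 was higher in bone stem cells, at 730.8, 988.7 and 1022.8 against 282.8 to 373.7 in stem Leydig cells, a log2 change of -1.41 ± 0.22 (adjusted p = 7.21e-05). Col8a2 (-1.11 ± 0.33, adjusted p = 0.0208) and Plod3 (-0.38 ± 0.12, adjusted p = 0.0369) were lower in stem Leydig cells in this fit. A fit restricted to both groups called none of P4ha1, Plod3 and Col8a2 (adjusted p = 0.0621, 0.113 and 0.109). The Col8a2 call was also lost without bone stem replicate 2 (adjusted p = 0.121) or 3 (adjusted p = 0.102), those of P4ha1 and Plod3 without most single arrays, and that of Col5a3 with 1 in place of 16 added to the signal (adjusted p = 0.228).

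In all, 9 of 52 genes were higher in stem Leydig cells (9.73% of all genes) and 3 lower (14.1%), against 23.9% of all genes called either way. With median centring 8 were higher and 3 lower, where 951 of all genes were higher and 2173 lower (1384 and 2007 without it). Dimmer probe sets of Col6a3 (2.12 ± 0.41, adjusted p = 0.000904), Lox (1.17 ± 0.32, adjusted p = 0.0117), Loxl2 (1.07 ± 0.31, adjusted p = 0.0205) and P4ha2 (0.82 ± 0.24, adjusted p = 0.0218) were higher in stem Leydig cells where the brightest were not called, and for P4ha2 the brightest had the opposite sign (-0.31 ± 0.19). The 3′ to 5′ beta-actin ratio was 2.38 to 2.95 in bone stem cells and 1.03 to 1.84 in stem Leydig cells, so RNA quality and cell type cannot be told apart here. Bone stem replicate 1 stood apart from the others for Col15a1 (1965.9 against 581 and 625.7) and Col18a1 (488.7 against 188.1 and 208.5), and neither gene passed.

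**Figure D4:**
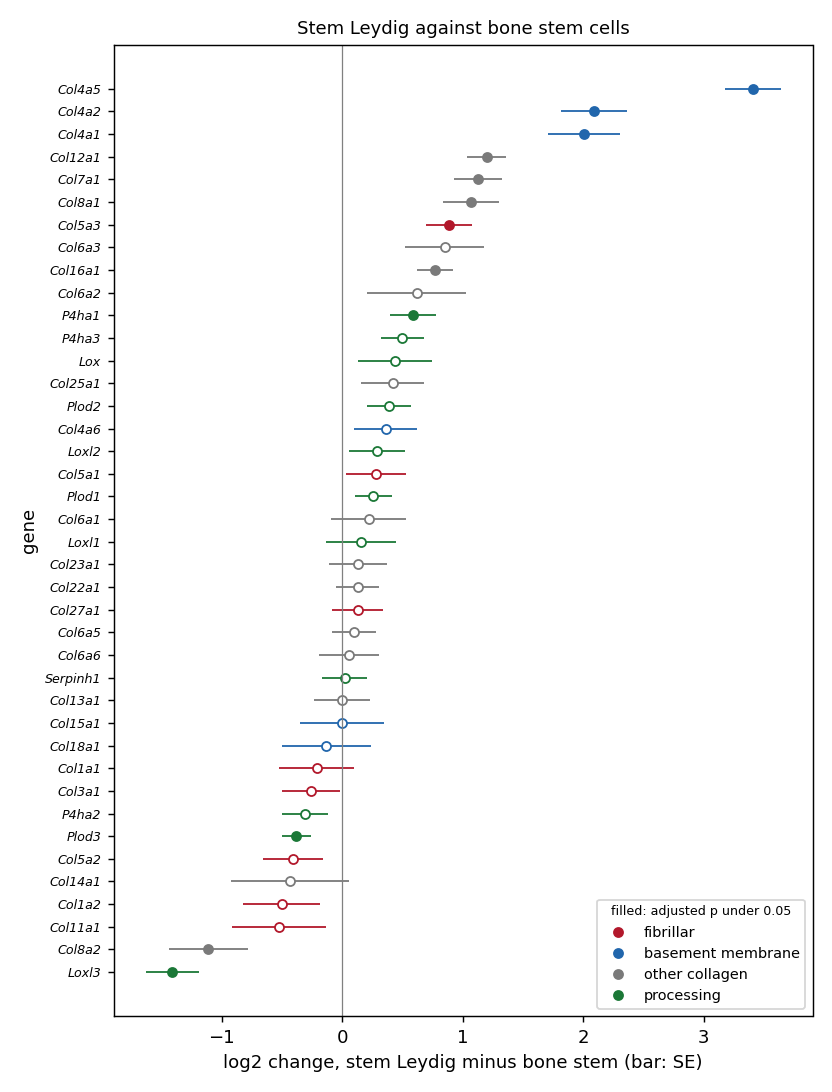
Log2 change of stem Leydig minus bone stem cells for the 40 genes that reached the median signal, ordered by size, with bars for the standard error and filled points for an adjusted p under 0.05. Col4a5, Col4a2 and Col4a1 lie furthest to the right and Loxl3 furthest to the left, and the fibrillar genes other than Col5a3 are open points from -0.52 (Col11a1) to 0.28 (Col5a1).

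Genes that work beside the set were counted from lists of partners. Of 14 further genes of collagen biosynthesis, 7 fell and 1 rose at the first step (18.5% and 26.8% of all genes), and 4 fell and 1 rose at the last (17.3% and 12%). The prolyl 3-hydroxylase genes P3h1 and P3h3 fell at both steps, P3h1 from 299 ± 37.1 in stem to 129 ± 9.43 in progenitor and 70.4 ± 6.66 in adult cells. The cyclophilin gene Ppib, which helps the helix to fold, was at 2040 ± 293 in stem and 1980 ± 140 in adult cells and passed in no comparison, nor did Pcolce, an enhancer of procollagen cleavage. Bmp1, which encodes the protease that trims the procollagen C-propeptide, rose by 0.41 ± 0.12 at the first step (adjusted p = 0.0121) and fell by 1.30 at the last.

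Among 22 receptors, fibril-binding proteins and other basement membrane genes, 9 fell and 3 rose at the first step (18.5% and 26.8% of all genes) and 10 fell and 1 rose at the last (17.3% and 12%). The collagen-binding integrin gene Itga11 went from 665 ± 238 in stem to 8.04 ± 1.03 in progenitor cells and was at 2530 ± 647 in bone stem cells. Lama2, a laminin chain gene of basement membranes, rose by 2.77 at the first step and fell by 2.40 at the last on the log2 scale, and the nidogen genes Nid1 and Nid2, whose products link laminin to type IV collagen, fell at the last step by 2.93 and 2.68. The proteoglycan gene Bgn was the one that rose at the last step, by 1.26, and Dcn, encoding the fibril-binding decorin, was at 1420 ± 318 in stem and 1950 ± 124 in adult cells.

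Of 10 genes of collagen breakdown, 4 fell and 2 rose at the first step (18.5% and 26.8% of all genes), and 1 fell and 3 rose at the last (17.3% and 12%). The gelatinase gene Mmp2 went from 1730 ± 447 in stem to 341 ± 68.8 in progenitor and 48 ± 15.2 in adult cells. Ctsk, Fap and the inhibitor gene Timp2, all linked to the turnover of collagen, rose at the last step, Fap from 264 ± 24.3 to 510 ± 41.6. Ctsk had fallen at the first step and was not called between adult and stem cells. Timp3 rose at the first step by 3.37 on the log2 scale.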

How the data were processed

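Arrays of 19 samples were grouped by the titles in the labels. The deposited values are linear signal intensities. The submitters' processing notes name MAS5 and GCOS, without a version. The 2% trimmed mean is 100 on every array. Without the 57 control probe sets, 31042 entered the tests. In the platform annotation 20826 have 1 symbol, 436 several and 9780 none. Of the 20826, 20758 had a gene ID held by the RefSeq table, and 0 symbols needed updating. Scanner files were not used here, and the number of arrays limits the precision.

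All arrays entered a linear model of 5 group means on log2(signal + 16) in limma 3.58.1 (R 4.3.3), with an intensity trend and two-sided moderated tests of 5 comparisons, adjusted by Benjamini-Hochberg over all 31042. Percentages of all genes refer to 14217 genes. The members, classes, partner lists and marker lists were chosen with earlier results of these data known. By the naming rule, 11 genes were always named, with the 4 widest ranges of group means per class and the 2 smallest adjusted p-values per class and comparison, 27 in all; the remaining genes were named after their values were seen. Same-numbered arrays of different groups had correlations of -0.37 to 0.30 in their deviations (9 of 33 over 0.1), so the numbers were not taken to pair samples. Promoter windows came from RefSeq (GRCr8) for 41 of 52 genes. Python 3.11.15 and matplotlib 3.10.9 made tables and plots. The model was also run on simulated data, with independent noise and changes placed only in the brighter probe sets. No result here rests on that run.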

Additional observations from a re-analysis of the deposited data

Results flagged for a closer look

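In 120 groups of 4 or 5 arrays (40 genes in stem Leydig, immature and adult cells), 8 held an array whose gap to its nearest neighbour took more of the group's range than Dixon's 95% critical value allows, and chance alone marks about 1 in 20. Immature replicate 4 was the high array in 5 of them, for Col4a2 (650, the others 396 to 426.5), Col5a2 (1516.4, the others 680.1 to 801.1), Col6a1 (2466.6, the others 1281.8 to 1391.6), Col6a2 (1184.1, the others 525.1 to 624.4) and Lox (445.4, the others 135.3 to 183.3). Stem replicate 3 was the low array for Loxl2 (273.3, the others 472.5 to 533.4) and P4ha2 (595.2, the others 879.2 to 964.1). Adult replicate 1 was the high array for Col4a5 (968.3, the others 825.2 to 842.8).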

How the results depend on the processing

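The numbers of called genes moved little with the processing in 4 of the 6 counts. Leaving out each array in turn gave 31 to 33 called genes for the first step (33 with all arrays), 26 to 28 for the last (28), 36 to 37 for adult against stem (36), 41 to 43 for the F-test (42), 9 to 13 for stem Leydig against bone stem cells (12) and 0 to 1 for the middle step (0). The 1 of the middle step was Lox, also with array quality weights, with probe sets averaged per gene and with 2 arrays that stand apart left out (1 each). Those 2 arrays were progenitor replicate 3 and immature replicate 4. Array quality weights gave 20 for stem Leydig against bone stem cells. A replicate block gave counts of 33, 0, 27, 36 and 10 for the first, middle and last step, adult against stem and stem Leydig against bone stem cells, and 41 for the F-test. Over 200 log2 changes of 40 genes and 4195 values under alternatives, 0 called changes reversed, and 18 of 106 called changes lost the call under at least 1 alternative, 6 of them only under a 2-fold minimum. Without the lowest 40% of probe sets 39 of the 52 genes could be tested. Signals near the lowest values have no tested floor.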
